A study of Rattus norvegicus with 28 samples.

Results

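Transcript levels of 6 subunits of the ionotropic glutamate receptors, the NMDA receptor genes Grin1, Grin2a and Grin2b and the AMPA receptor genes Gria1, Gria3 and Gria4, were followed in rat orbitofrontal cortex after methamphetamine (meth) or saline self-administration. The 6 genes were chosen by their Ensembl identifiers. All 6 were present among the 26405 genes of the count files, and all 6 passed the filter on low counts that kept 15413 genes. The files carry no gene names, so the names follow the list of identifiers used to choose them, and other subunits, cell type markers and markers of the dissected region were not examined. Of the 28 samples listed, the 16 orbitofrontal libraries were analysed and the 12 from the central amygdala were not analysed here. Sprague Dawley rats had self-administered meth, a psychostimulant, or saline, and were killed at withdrawal day 2 or day 35. The 4 groups were day 2 saline, day 2 meth, day 35 saline and day 35 meth, with 4 libraries each. Every library was made from poly(A) RNA of tissue punches pooled from 2 rats, so a replicate is a pool and differences between the 2 rats of a pool cannot be seen. In the labels the 2 times are only short and long; the days are those of the design text.

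NMDA and AMPA receptors are cation channels opened by glutamate at excitatory synapses. AMPA receptors, assembled from GluA subunits, carry most of the fast current. NMDA receptors need GluN1 (Grin1) together with GluN2 subunits, admit calcium and act in the induction of synaptic plasticity. GluN2A and GluN2B (Grin2a, Grin2b) set channel kinetics, and their balance is known to shift toward GluN2A as cortex matures. GluA1 (Gria1) is the subunit known for activity-dependent delivery to synapses, GluA3 (Gria3) pairs with other GluA subunits in principal cells, and GluA4 (Gria4) is known in cortex mainly from fast-spiking interneurons. Meth craving is known to grow over the first weeks of withdrawal (incubation of craving), and changes of AMPA receptors in the rat nucleus accumbens are known from such models.

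Promoter sequence was at hand for 2 of the 6 genes, Grin1 and Gria4, and is shown for both. Neither gene's fold change over withdrawal in meth rats passed the main edgeR test described below. A link between the 2 sequences and the levels was not tested. Each is the 250 bases before the RefSeq gene start on build GRCr8 and reads 5′ to 3′ on the gene's strand, with motif matches in capitals.
Grin1 (chr3:28528755-28529004, minus strand): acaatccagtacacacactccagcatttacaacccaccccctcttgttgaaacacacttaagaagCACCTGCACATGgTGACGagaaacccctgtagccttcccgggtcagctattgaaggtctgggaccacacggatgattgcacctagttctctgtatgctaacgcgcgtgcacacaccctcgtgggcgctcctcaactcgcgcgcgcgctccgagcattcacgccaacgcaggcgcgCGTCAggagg
Gria4 (chr8:10319882-10320131, minus strand): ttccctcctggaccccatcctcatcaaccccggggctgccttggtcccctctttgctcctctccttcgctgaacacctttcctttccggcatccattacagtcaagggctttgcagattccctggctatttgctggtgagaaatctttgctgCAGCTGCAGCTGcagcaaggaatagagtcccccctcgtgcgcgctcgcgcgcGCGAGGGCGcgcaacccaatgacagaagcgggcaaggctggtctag
Both windows are rich in G and C, at 57.6% in Grin1 and 59.6% in Gria4, against a median of 51.2% over the same 250 bases before the start of 33469 genes' promoters. They hold 19 and 14 CG dinucleotides, where the median promoter holds 5. A search for 5 motifs, chosen with the results known, covered both strands. The CRE half-site TGACG occurred 2 times in the Grin1 window and in none of the Gria4 window, and 18.2% of all promoters hold it. The Egr motif GCGNGGGCG occurred 1 time in the Gria4 window, 46 to 38 bases before the start, and 4.29% of all promoters hold it. The E-box CANNTG occurred 2 times in each window, with 65.5% of all promoters holding it. The Sp1 letters GGGCGG (30.5% of promoters) and the AP-1 letters TGANTCA (6.34%) were in neither window, and no matches of different motifs overlapped. These matches are descriptions of letters and not of binding. Shares are over all promoters and were not matched for the G and C content of these windows.

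Gene counts ranged from 20.33 to 48.47 M per library (M, mega), and the day 2 saline libraries were the shallowest (20.33 to 23.54 M). Even there the receptor genes were well covered. The lowest count of any of the 6 was 1084 reads, for Grin2b, which gives a counting error of 3.04%; for Grin1 the lowest was 11704 reads (0.924%). Each library of a group sat on another sequencing lane and carried the same index as the rest of its group, so index and group cannot be told apart. In bulk tissue, fewer cells of a type and less RNA per cell cannot be told apart either.

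Levels are given as CPM, the share of a library's counts scaled to a common total, computed here with library sizes scaled by TMM. They are not divided by transcript length, so levels are compared between groups for one gene and never between genes. The 6 genes varied little between libraries. From the lowest to the highest of the 16 libraries Gria3 varied 1.15-fold, Grin1 1.15-fold, Gria1 1.197-fold, Gria4 1.21-fold, Grin2b 1.26-fold and Grin2a 1.31-fold. The biological coefficient of variation between pools of a group, as edgeR estimates it, was 3.68% for Grin1, 3.96% for Gria1, 4.07% for Gria3 and 4.31% for Gria4. It was 5.97% for Grin2b and 6.69% for Grin2a, above 88% and 91% of the 4087 genes at 50 CPM or more. The GluN2 genes were thus the least steady of the 6 between pools.

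**Figure D1:**
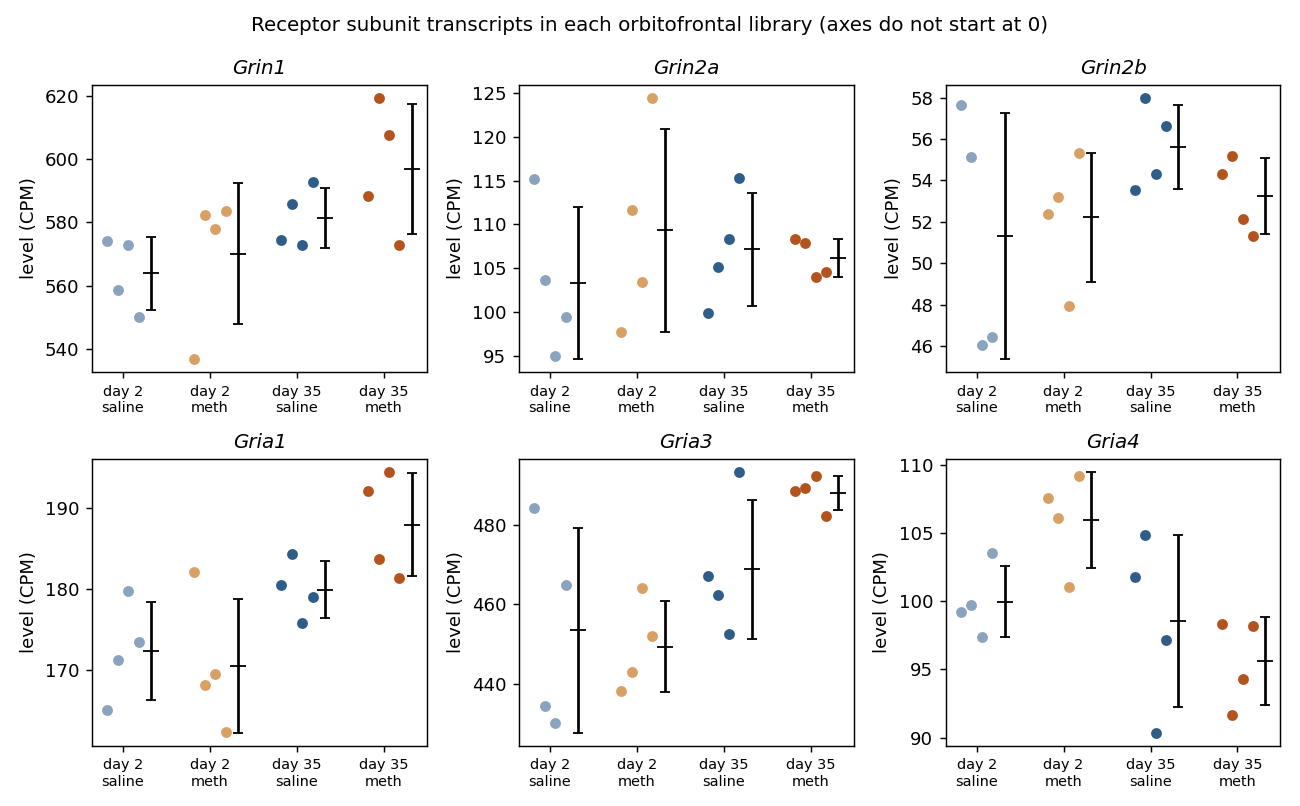
Level (CPM, vertical axis, not starting at 0) of each subunit gene in the 16 libraries; points are libraries of the 4 groups and bars show the mean ± SD of 4. The day 35 meth libraries lie above all day 2 meth libraries for Gria3 and below them all for Gria4, and the groups overlap in Grin1, Grin2a and Grin2b.

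Among the NMDA receptor genes, Grin1 (ENSRNOG00000011726), whose product every NMDA receptor needs, is described first. Its levels were 574, 559, 573 and 550.2 CPM in day 2 saline and 537, 582, 578 and 583 CPM in day 2 meth libraries. At day 35 they were 574, 586, 573 and 593 CPM in saline and 588, 619, 607 and 573 CPM in meth libraries. The order of the group means ran from day 2 saline (564 ± 11.5 CPM, SD, n = 4) through day 2 meth (570.1 ± 22.3) and day 35 saline (581 ± 9.50) to day 35 meth (597 ± 20.6). Neighbours in this order overlapped.

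Grin2a (ENSRNOG00000033942), which encodes the GluN2 subunit of mature synapses, stood at 115, 104, 95.04 and 99.4 CPM in day 2 saline and at 97.8, 112, 103 and 124 CPM in day 2 meth libraries. At day 35 the values were 99.9, 105, 108 and 115 CPM in saline and 108, 108, 104 and 105 CPM in meth libraries. The day 2 meth group spanned the widest range, 97.8 to 124 CPM, and the day 35 meth group the narrowest, 104 to 108 CPM, inside the range of each other group.

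Grin2b (ENSRNOG00000008766), the GluN2 subunit prominent early in development, stood at 57.6, 55.1, 46.0 and 46.5 CPM in day 2 saline and at 52.4, 53.2, 47.9 and 55.3 CPM in day 2 meth libraries. At day 35 it stood at 53.5, 58.0, 54.3 and 56.6 CPM in saline and at 54.3, 55.2, 52.1 and 51.3 CPM in meth libraries. In day 2 saline, replicates 13 and 14 were high and replicates 15 and 16 low, the widest relative spread of any group and gene here (coefficient of variation 11.6%).

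Among the AMPA receptor genes, Gria1 (ENSRNOG00000045816), the subunit of activity-dependent delivery, stood at 165, 171, 179.7 and 173 CPM in day 2 saline and at 182, 168, 169 and 162 CPM in day 2 meth libraries. At day 35 it stood at 180.4, 184, 176 and 179 CPM in saline and at 192, 184, 194 and 181 CPM in meth libraries. Day 2 meth replicate 1, at 182 CPM, lay just above the lowest day 35 meth library, and the other day 2 meth libraries lay below all day 35 libraries of either drug group.

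Gria3 (ENSRNOG00000007682) stood at 484, 434, 430.1 and 465 CPM in day 2 saline and at 438, 443, 464 and 452 CPM in day 2 meth libraries. At day 35 it stood at 467, 462, 452 and 493 CPM in saline and at 489, 489, 492 and 482 CPM in meth libraries. The day 35 meth libraries lay close together, between 482 and 492 CPM, and all lay above the day 2 meth libraries, while 1 library of each saline group reached into their range or beyond.

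Gria4 (ENSRNOG00000006957), the subunit known from fast-spiking interneurons, had its highest mean in day 2 meth rats. It stood at 99.2, 99.7, 97.4 and 104 CPM in day 2 saline and at 108, 106, 101.04 and 109 CPM in day 2 meth libraries. At day 35 it stood at 102, 105, 90.4 and 97.1 CPM in saline and at 98.3, 91.7, 94.3 and 98.2 CPM in meth libraries. The group means were ordered from day 2 meth (106 ± 3.52 CPM) through day 2 saline (99.97 ± 2.59) and day 35 saline (98.5 ± 6.30) to day 35 meth (95.6 ± 3.24), and neighbours in this order overlapped.

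The first comparison asked whether meth rats differed from saline rats early in withdrawal. At day 2, 0 of the 6 genes passed edgeR's quasi-likelihood test at an adjusted p under 0.05, where 0.11% of the 15413 genes tested did. None of the 6 had an unadjusted p under 0.05 (10.5% of all genes did), and DESeq2 and limma-voom called 0 of the 6 as well, where they called 2.07% and 0.11% of the genes to which each gave an adjusted p. The 2 largest differences were those of Gria4, with a log2 fold change of 0.08 (adjusted p = 0.50 in edgeR, SE 0.041), and Grin2a (0.08, adjusted p = 0.72 in edgeR, SE 0.068). The value of Grin2a was 0.01 without day 2 meth replicate 4 and 0.13 without day 2 saline replicate 13. The groups overlapped in all 6 genes, where they did not in 5.45% of all genes. The 95% intervals, each for a single gene and not adjusted over genes, reached from 0.966- to 1.06-fold for Grin1. The widest, for Grin2a, reached from 0.959- to 1.17-fold.

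Late in withdrawal, at day 35, 0 of the 6 genes were called between meth and saline rats, and edgeR called 0% of all genes. DESeq2 and limma-voom also called 0 of the 6 (0.0324% and 0% of all genes), and none had an unadjusted p under 0.05 (5.85% of all genes did). Gria1 (0.06 on the log2 scale, adjusted p = 0.89 in edgeR, SE 0.036) and Gria3 (0.06, adjusted p = 0.90 in edgeR, SE 0.036) had higher means in meth rats. Grin2b (-0.06, adjusted p = 0.95 in edgeR, SE 0.061) and Gria4 (-0.04, adjusted p = 0.94 in edgeR, SE 0.041) had lower means. All 6 overlapped between the groups (3.46% of all genes did not), and no 95% interval reached beyond a 1.14-fold difference. Averaged over both days, meth and saline differed by 0.988- to 1.03-fold in the 6 genes, 0 of which were called (0.013% of all genes were).

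**Figure D2:**
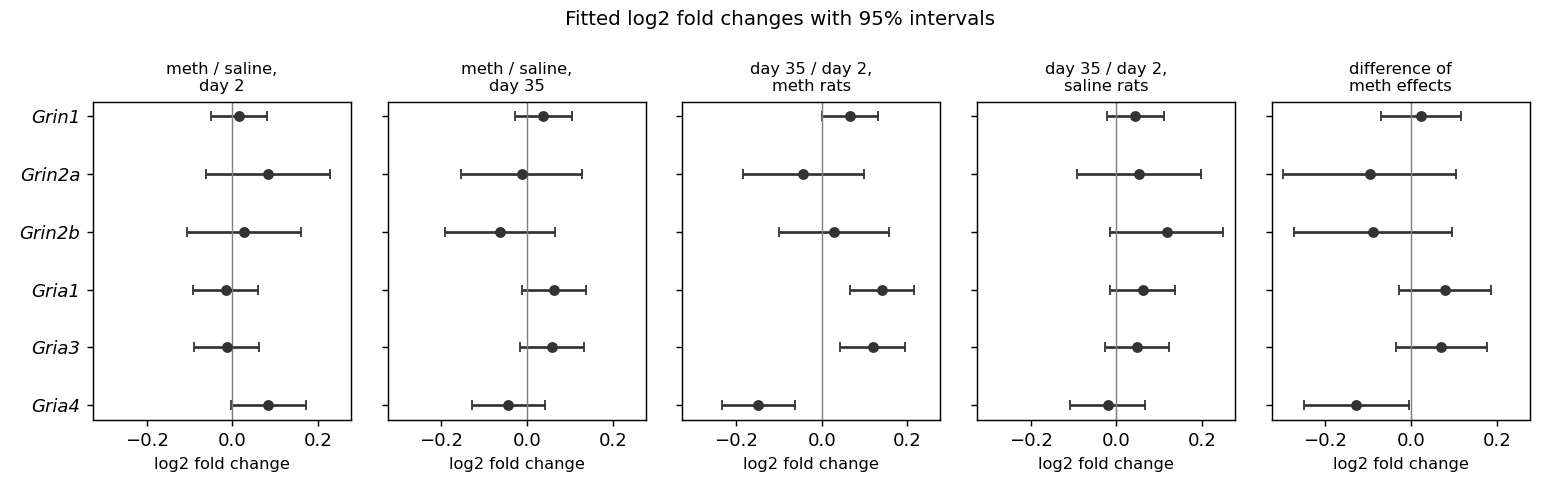
Fitted log2 fold change (horizontal axis) of each subunit gene in 5 comparisons, with 95% intervals from the model over all 16 libraries. Intervals clear of 0 are those of Grin1, Gria1, Gria3 and Gria4 for day 35 against day 2 in meth rats and of Gria4 for the difference of meth effects; none of these passed adjustment over all genes.

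The AMPA receptor genes came closest to a change between the days in meth rats. From day 2 to day 35 the mean of Gria1 went from 171 ± 8.27 to 188 ± 6.36 CPM, a log2 fold change of 0.14 (SE 0.036), which just missed the threshold (edgeR adjusted p = 0.0505). Gria3 went from 449 ± 11.4 to 488 ± 4.22 CPM (0.12 on the log2 scale, adjusted p = 0.099 in edgeR, SE 0.036). Gria4 went from 106 ± 3.52 to 95.6 ± 3.24 CPM (-0.15 on the log2 scale, adjusted p = 0.069 in edgeR, SE 0.041). These are differences of 1.102-fold upward, 1.09-fold upward and 1.11-fold downward.

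In this comparison 0 of the 6 genes were called, against 1.83% of all genes, and 4 of the 6 had an unadjusted p under 0.05, against 16% of all genes. The fourth was Grin1 (0.07 on the log2 scale, adjusted p = 0.31 in edgeR, SE 0.031). Grin2a (-0.04, SE 0.067) and Grin2b (0.03, SE 0.061) had adjusted p of 0.81 and 0.87 in edgeR. The median absolute log2 fold change was 0.14 over the 3 AMPA genes, 0.04 over the 3 NMDA genes and 0.07 over all genes tested. In the same order the medians were 0.048, 0.053 and 0.059 between the days in saline rats. They were 0.079, 0.089 and 0.082 for the difference of meth effects, described below. The day 2 and day 35 meth groups did not overlap in Gria3 and Gria4, 1 gene in each direction. Over all genes, 5% were higher and 6.44% lower without overlap.

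Whether these genes pass depends on the fit. DESeq2 called all 3 AMPA genes (adjusted p = 0.0071 for Gria1, 0.039 for Gria3 and 0.035 for Gria4), and limma-voom called Gria1 (adjusted p = 0.042). Over all genes with an adjusted p, DESeq2 called 3.9% and limma-voom 2.29% in this comparison, against edgeR's 1.83%. Of 25 alternatives, 9 called Gria1 (4 of them by leaving out 1 library: day 2 meth replicate 1, day 35 saline replicate 11, or day 2 saline replicate 13 or 15), 3 called Gria3 and 4 called Gria4, and all 25 kept each gene's direction. With lane as a block Gria4 was called (edgeR adjusted p = 0.044) and the others were not. Leaving out 1 library moved the edgeR adjusted p of Gria1 between 0.013, without day 2 meth replicate 1, and 0.16, without day 2 meth replicate 4. That of Gria4 moved between 0.037, without day 35 saline replicate 11, and 0.21, without day 35 meth replicate 6. That of Gria3 moved between 0.0499, without day 2 saline replicate 13, and 0.20, without day 35 meth replicate 5.

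The same interval of withdrawal in saline rats gave smaller values for these AMPA genes. Here 0 of the 6 genes were called by edgeR, DESeq2 or limma-voom, which called 0%, 0.484% and 0% of the genes with an adjusted p, and none had an unadjusted p under 0.05 (8.68% of all genes did). Gria1 had a log2 fold change of 0.06 (SE 0.036), Gria3 of 0.05 (SE 0.036) and Gria4 of -0.02 (SE 0.041), with edgeR adjusted p of 0.66, 0.76 and 0.94. Each had the sign seen in meth rats. The largest value was that of Grin2b, from 51.3 ± 5.94 to 55.6 ± 2.05 CPM (0.12 on the log2 scale, adjusted p = 0.63 in edgeR, SE 0.063). It was 0.07 without day 2 saline replicate 15 or replicate 16 and 0.17 without replicate 13. Groups overlapped in all 6 genes (3.86% of all genes did not).

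Whether the change over withdrawal differed between meth and saline rats was tested directly, by subtracting the log2 fold change of saline rats from that of meth rats. It was called for 0 of the 6 genes by edgeR, DESeq2 or limma-voom, which called 0.136%, 0.637% and 0.0519% of the genes with an adjusted p. The count of 21 genes behind edgeR's share was 0 without day 2 saline replicate 14. An unadjusted p under 0.05 was found for 1 of the 6, against 9.62% of all genes. That gene was Gria4, with a difference of -0.13 on the log2 scale (SE 0.058, adjusted p = 0.50 in edgeR; 95% interval -0.25 to -0.0056). For Gria1 the difference was 0.08 (adjusted p = 0.66 in edgeR, SE 0.051) and for Gria3 0.07 (adjusted p = 0.70 in edgeR, SE 0.051). The larger values in meth rats are therefore not shown to differ from those in saline rats.

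Ratios of subunits within a library do not depend on library size, and only their change between groups is read. The Grin2a to Grin2b ratio, a measure of the GluN2 balance, was 1.88 to 2.14 in day 2 saline, 1.87 to 2.25 in day 2 meth, 1.81 to 2.04 in day 35 saline and 1.95 to 2.04 in day 35 meth libraries. Its log2 difference between meth and saline was 0.05 (SE 0.070) at day 2 and 0.05 (SE 0.041) at day 35, with exact two-sided permutation p of 0.49 and 0.29. The ratio of Gria1 to Gria3 was 0.380 in day 2 saline, 0.379 in day 2 meth, 0.384 in day 35 saline and 0.385 in day 35 meth (geometric means of 4). Within groups it ranged far more than that, from 0.341 to 0.418 in day 2 saline. The summed CPM of the 3 NMDA genes against the 3 AMPA genes had geometric mean ratios of 0.990, 1.01, 0.996 and 0.980 in the same order of groups. These sums are not corrected for transcript length and rest mostly on Grin1 and Gria3, so they do not measure a balance of receptors. With the mean of log2 CPM per family instead, the log2 difference between the days was 0.044 in saline rats (0.0087 with sums). In meth rats it was -0.017 (-0.039 with sums).

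Over these 3 ratios, 4 pairs of groups and the difference of meth effects, 15 tests were made. The smallest exact permutation p was 0.23, for Grin2a to Grin2b between the days in saline rats (log2 difference -0.07, SE 0.056), and every adjusted p was 0.97. With 4 libraries against 4 the smallest p such a test allows is 0.0286, and after adjustment over the 15 tests a lone ratio at that p would not pass.

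The ratios of Gria1 and Gria3 to Gria4 were chosen after the values above were seen, because their means differed in opposite directions over the days in meth rats, and are described without a test. The Gria3 to Gria4 ratio was 4.07, 4.18, 4.59 and 4.14 in day 2 meth and 4.97, 5.34, 5.22 and 4.91 in day 35 meth libraries. In saline libraries it was 4.88, 4.36, 4.42 and 4.49 at day 2 and 4.59, 4.41, 5.01 and 5.08 at day 35. The meth groups did not overlap, which follows from the lack of overlap in each of the 2 genes, and differed by 0.27 on the log2 scale (SE 0.048), and the saline groups overlapped with a difference of 0.07 (SE 0.061). The Gria1 to Gria4 ratio, chosen in the same way, was 1.49 to 1.69 in day 2 meth and 1.85 to 2.06 in day 35 meth libraries, without overlap. In saline libraries it was 1.66 to 1.85 at day 2 and 1.76 to 1.95 at day 35, with overlap. Its log2 difference between the days was 0.29 (SE 0.055) in meth and 0.09 (SE 0.048) in saline rats. Because both ratios were picked for opposite directions in these same libraries, their separation is no further evidence of a change.

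**Figure D3:**
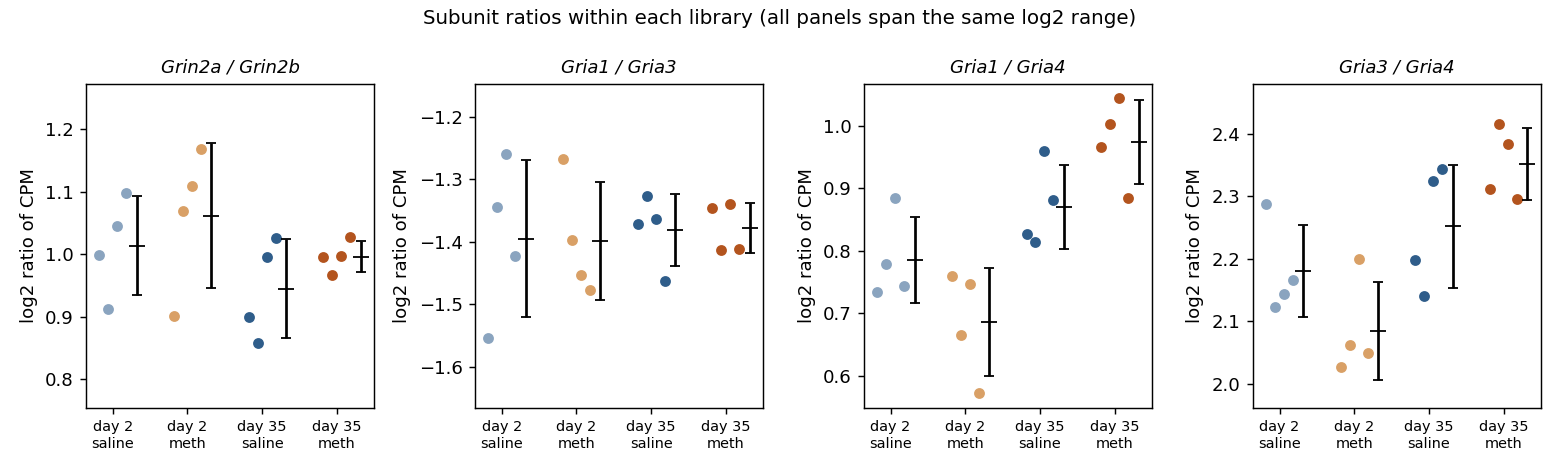
Log2 ratio of CPM of 2 subunit genes within each library (vertical axis, same span in every panel), with points for libraries and bars for the mean ± SD of 4. Grin2a/Grin2b and Gria1/Gria3 overlap across all 4 groups, while Gria1/Gria4 and Gria3/Gria4 are higher in every day 35 meth library than in any day 2 meth library. Gria1/Gria4 and Gria3/Gria4 were chosen after the values were seen, and their saline groups overlap between the days.

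How the 6 genes varied together between replicate pools was examined after removing each group's mean, over 16 libraries and 15 pairs of genes. The strongest relation was negative, between Grin2a and Gria1 (Pearson r = -0.75, permutation p = 0.0067, adjusted p = 0.097; Spearman rho = -0.71, permutation p = 0.0066, adjusted p = 0.071). Without the 2 libraries farthest from the median in Grin2a, day 2 meth replicate 4 and day 2 saline replicate 13, r was -0.60. Grin2a and Grin2b, both partners of GluN1, had the highest positive value (r = 0.69, permutation p = 0.013, adjusted p = 0.097; rho = 0.71, permutation p = 0.0094, adjusted p = 0.071), and r was 0.54 without the same libraries.

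Grin1 and Grin2a had r = 0.52 (permutation p = 0.083, adjusted p = 0.42; rho = 0.55, permutation p = 0.043, adjusted p = 0.22). In the other 12 pairs r lay between -0.39 and 0.50, with adjusted permutation p from 0.42 to 0.94. No pair passed adjustment over the 15.

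**Figure D4:**
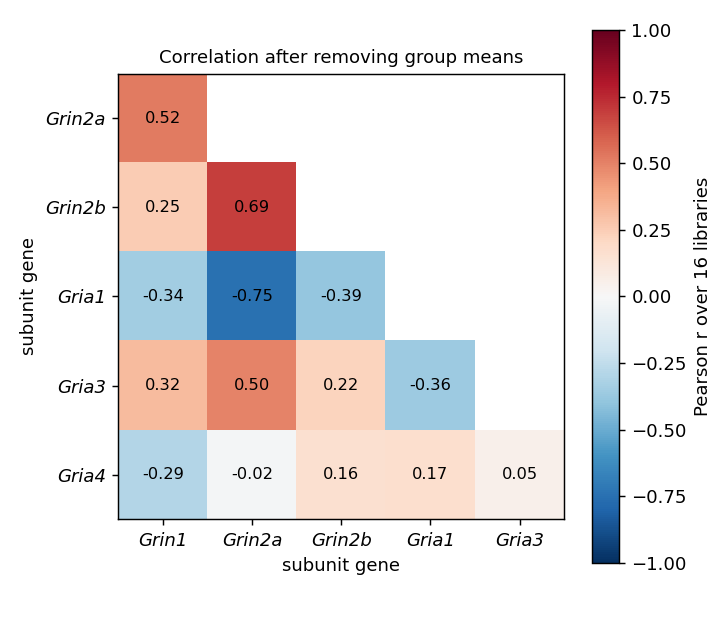
Pearson correlation of log2 CPM between the 6 subunit genes over 16 libraries after subtraction of group means, with red for positive and blue for negative values. Grin2a and Grin2b have the highest value (0.69) and Grin2a and Gria1 the lowest (-0.75).

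Patterns over all 16 libraries, group means included, were also compared with the 15377 tested genes that had reads in every library. By Pearson r of log2 CPM, the gene most like Grin1 was ENSRNOG00000017003 (r = 0.86), that most like Grin2b was ENSRNOG00000008741 (r = 0.84), and that most like Gria1 was ENSRNOG00000004208 (r = 0.86). For Gria3 it was ENSRNOG00000048682 (r = 0.86) and for Gria4 ENSRNOG00000001424 (r = 0.91), while for Grin2a it was ENSRNOG00000037656 (r = 0.89), whose mean level was only 0.44 CPM. None of the nearest genes was another of the 6 subunits. The best-placed subunit ranked 126 for Grin2b (Grin2a, r = 0.65), 181 for Grin2a (Grin2b), 308 for Gria3 (Grin1, r = 0.62) and 317 for Grin1 (Gria3). For Gria1 the best-placed was Gria3 at rank 1864 (r = 0.40), and for Gria4 it was Grin2a at rank 6450 (r = 0.080). The r of each nearest gene is the highest of all genes compared, over few libraries, and is given as a description.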

How the data were processed

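RNA-seq was analysed in 16 orbitofrontal libraries. The authors deposited raw read counts per Ensembl gene, 1 file per library, with no normalization; TopHat, HTSeq, limma and build rn4 are named, without roles, in the submitters' processing notes. No source used here gives versions, annotation release or strand setting. The 5 HTSeq summary rows, among them 20.89 to 22.35% of reads in no feature and 9.17 to 10.29% with several alignments, were left out. Without strand, reads of antisense genes cannot be told apart.

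Counts were filtered (filterByExpr), TMM-scaled (factors 0.985 to 1.018) and fitted as 4 group means over 16 libraries with edgeR 4.0.16 in R 4.3.3 (glmQLFit, robust; glmQLFTest), with Benjamini-Hochberg adjustment over 15413 genes; SE is the log2 fold change over the square root of F. Alternatives used DESeq2 1.42.0 and limma-voom 3.58.1. Ratios were tested by exact permutation, correlations by 100000 permutations within groups. The edgeR fit and test were tried on simulated counts with known changes, and the permutation code for ratios on small cases with known answers. The DESeq2, limma-voom and correlation code was not tried in this way. No within-group pair was a repeat of the same library (chi-square 5.19 to 17.01 per degree of freedom). Lanes, from the labels, pair libraries: deviations correlated by 0.031 on average over 24 same-lane pairs (-0.30 to 0.25) and by -0.011 over 72 others. The genes, lists and tests were chosen with earlier results of these data known; all 6 genes were named in every comparison, with the single most similar gene each. Lists of other receptor genes and markers could not be matched, as 0 entries of the gene table carry an Ensembl identifier. Nothing in the labels ties a library to one of the rat cohorts.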

Additional observations from a re-analysis of the deposited data

Results flagged for a closer look

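In day 2 meth, replicate 1 stood apart for Grin1, at 537 CPM against 578, 582 and 583 CPM in the other 3 libraries, a gap of 0.877 of the group's range. It was 1 of 44 sets of 4 values examined, which share libraries and genes, and chance flags about 1 in 20. This library had the fewest gene counts of its group (24.97 M) and 10.29% of reads with several alignments, the highest of all 16; their part in the low value was not tested. Without it the log2 fold change of Grin1 was 0.04 between meth and saline at day 2 (0.02 with it) and 0.04 between the days in meth rats (0.07 with it).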

How the results depend on the processing

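Each fold change was computed again under 24 or 25 alternatives, and 26 of the 36 kept their sign in all of them; the 10 others were all at or below 0.0432 on the log2 scale. The count of subunit genes called stayed at 0 in 5 of the 6 comparisons under every alternative. Between the days in meth rats it went from 0 to 1 with median-ratio size factors, without the low-count filter, with a filter at 1 CPM in 4 libraries and with limma-voom (Gria1 each time). It was 1 with lane as a replicate block (Gria4), 2 in a fit of the meth libraries alone (Gria3 and Gria4) and 3 with DESeq2, and 0 to 2 with 1 library left out. Thinning all libraries to the smallest, chosen after seeing the data, left it at 0, as did dropping both libraries farthest out in Grin2a (day 2 meth 4, day 2 saline 13). The cause of these moves was not tested. The lane block changed no other call among the 6 genes.

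With 1 library left out, log2 fold changes at day 2 that changed sign ranged from -0.0017 to 0.037 (Grin1), -0.027 to 0.080 (Grin2b), -0.055 to 0.0040 (Gria1) and -0.042 to 0.015 (Gria3). At day 35 that of Grin2a ranged from -0.045 to 0.025. Between the days they ranged from -0.087 to 0.029 (Grin2a) and -0.011 to 0.062 (Grin2b) in meth rats and from -0.052 to 0.018 (Gria4) in saline rats, and averaged over days from -0.045 to 0.0092 (Grin2b) and -0.00024 to 0.033 (Gria4). Among values that kept their sign, several also moved by over 1.5 times. At day 2 this held for Grin2a (0.012 to 0.13) and at day 35 for Grin1 (0.021 to 0.058) and Gria4 (-0.082 to -0.014). Between the days it held for Grin1 in meth rats (0.044 to 0.089). In saline rats it held for Grin2a (0.012 to 0.11), Grin2b (0.066 to 0.17), Gria1 (0.040 to 0.080) and Gria3 (0.022 to 0.079). For the difference it held for Grin1 (0.0015 to 0.045), Grin2a (-0.15 to -0.024), Grin2b (-0.14 to -0.035) and Gria3 (0.043 to 0.10). Averaged over days it held for Grin1 (0.017 to 0.037), Grin2a (0.00017 to 0.061), Gria1 (0.0042 to 0.034) and Gria3 (0.0079 to 0.037). Without both libraries farthest out in Grin2a, Gria3 stood at 0.015 at day 2 and Grin2a at 0.029 between the days in meth rats. The Grin2a to Grin2b ratio ranged from -0.051 to 0.039 for the difference of meth effects. The Gria1 to Gria3 ratio ranged from -0.057 to 0.041 at day 2, -0.023 to 0.022 at day 35, -0.0050 to 0.065 between the days in meth rats, -0.039 to 0.059 in saline rats and -0.037 to 0.061 for the difference. The NMDA to AMPA ratio ranged from -0.0014 to 0.056 at day 2 and -0.017 to 0.022 between the days in saline rats. For a ratio between 2 groups, leaving out 1 library allows no p below 0.0571 and the lane-wise test of 4 differences none below 0.125, so these alternatives could not pass and say nothing about stability.

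Without subtraction of group means r became 0.32 for Grin1 with Gria1, 0.080 for Grin2a with Gria4 and -0.033 for Grin2b with Gria4. It became 0.40 for Gria1 with Gria3, -0.42 for Gria1 with Gria4 and -0.42 for Gria3 with Gria4. These pairs changed sign. Grin2a with Gria1, the strongest pair after subtraction, kept its sign at r = -0.45, and Grin1 with Gria3 rose to 0.62. No pair passed adjustment.

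Over all genes, edgeR called 17 at day 2, 0 at day 35, 21 for the difference, 282 and 0 between the days in meth and saline rats and 2 on average, against 115, 5, 83, 554, 37 and 29 with DESeq2. The 21 fell to 8 with median-ratio factors, limma-voom or thinning, 9 with the 1 CPM filter and 4 with the lane block. Without the pair of libraries named above, the counts were 4, 0, 0, 119, 0 and 0 in the first order, and with 1 library left out they ranged from 6 to 21, 0 to 1, 0 to 17, 104 to 305, 0 to 2 and 1 to 4.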
